A study of Arabidopsis thaliana with 4 samples.

Results

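The genes described here are the transcription factors of Arabidopsis thaliana roots, other than the WRKY family, that differed in level after cadmium (Cd) in at least 1 of 2 genotypes. A rule on words in the annotated descriptions chose them from tables of models that already differed at least 2-fold. A gene model was included when its description named a transcription factor, myb, bHLH, NAC domain, bZIP, homeobox, GATA, MADS, AGAMOUS-like or zinc finger protein and did not name WRKY or a kinase, and the rule left out 5 loci by their identifiers. This gave 75 models at 74 loci, of 1518 distinct models in the 2 deposited tables. There were 50 of them among the 1001 models listed for ein3eil1 and 42 among the 807 listed for Col, and 17 models stood in both tables. The description of a zinc finger also takes in proteins that are not DNA-binding factors, such as RING-type ubiquitin ligases and the mitochondrial protein TIM10. These 11 models are called other zinc finger proteins. Factors whose description uses none of these words, such as ERF and GRAS proteins, are not included.

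Root tips of 5-day-old seedlings grown on MS medium were sequenced in 4 groups. These were the ein3eil1 mutant (ein3-1eil1-1) after 6 h with 150 µM CdSO4, the untreated ein3eil1 mutant, the wild type Col-0 after the same Cd treatment, and untreated Col-0. Each group had 1 library, so no difference has a replicate check. The libraries held 16773595 to 19192279 reads. Levels are given in RPKM, reads per kilobase of gene model scaled to the reads of the library, and ratios are Cd over control. The sources used here do not say whether controls were kept for the same 6 h, so a time difference and the Cd treatment cannot be told apart in the ratios. The interval after a ratio is the 95% exact Clopper-Pearson interval of the read counts. It covers counting error only. The tables hold models with at least a 2-fold difference, so that a gene absent from one may have differed less or had too few reads. Neither EIN3 nor EIL1 was listed, which leaves the mutant genotype unchecked in these values, and the tissue could be checked only through marker genes that differed. Of 15 root cell type markers, 1 was listed in ein3eil1 and 2 in Col, all lower with Cd. Of 10 photosynthesis markers, 3 (RBCS1A, RBCS3B and LHCB2.1) were listed in ein3eil1, all higher with Cd, and Col listed none. Their summed level was 75.0 RPKM in ein3eil1+Cd and 31.4 RPKM in the ein3eil1 control. The labels name root tips and primary root, while a protocol sentence also names shoots. The part of these markers in the results was not tested.

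Transcription factors bind short DNA sequences near genes and set how much RNA is made from them. EIN3 and its homologue EIL1 are the factors at the end of the ethylene pathway: ethylene stabilizes them, and they switch on further factors. Plant families have characteristic tasks. Many MYB proteins control phenylpropanoid, lignin and suberin synthesis, NAC proteins act in stress, senescence and wood formation, and a small group of bHLH proteins drives iron uptake in roots, the route by which Cd also enters.

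Most of the listed factors were higher with Cd in both genotypes. In ein3eil1, 48 of the 50 models reached 1 RPKM in at least 1 library, and of these 37 were higher and 11 lower. The share of higher models was 77.1%, beside 62.4% of all listed models at this level. In Col, 38 of 42 models reached 1 RPKM, with 28 higher and 10 lower. That is 73.7% higher, beside 55.5% of all listed models. The lower share was 22.9% in ein3eil1 (37.6% of all) and 26.3% in Col (44.5% of all). Differences of 4-fold or more were found in 10 of 48 members in ein3eil1 (20.8%, beside 24.1% of all listed models) and 9 of 38 in Col (23.7%, beside 26.3%). In ein3eil1 these were 8 higher and 2 lower, beside 15.7% and 8.40% of all listed models, and in Col 8 higher and 1 lower, beside 15.2% and 11.1%. The median log2 ratio of members was 1.27 in ein3eil1 and 1.25 in Col, beside 1.14 and 1.06 for all listed models of the same tables. With TMM scaling, whose factors could be computed from listed models only, 14 members stayed at least 2-fold higher and 11 lower in ein3eil1, beside 25.2% and 37.6% of all listed models. The higher share of those still past 2-fold was 56.0% for members and 40.1% for all. In Col the same scaling left 16 higher and 10 lower, beside 32.2% and 44.5% of all, with higher shares of 61.5% for members and 42.0% for all. Both TMM shifts lowered the log2 ratios, so every lower model had to stay past 2-fold and only higher models could drop out. Models that would newly pass 2-fold are not listed.

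**Figure D1:**
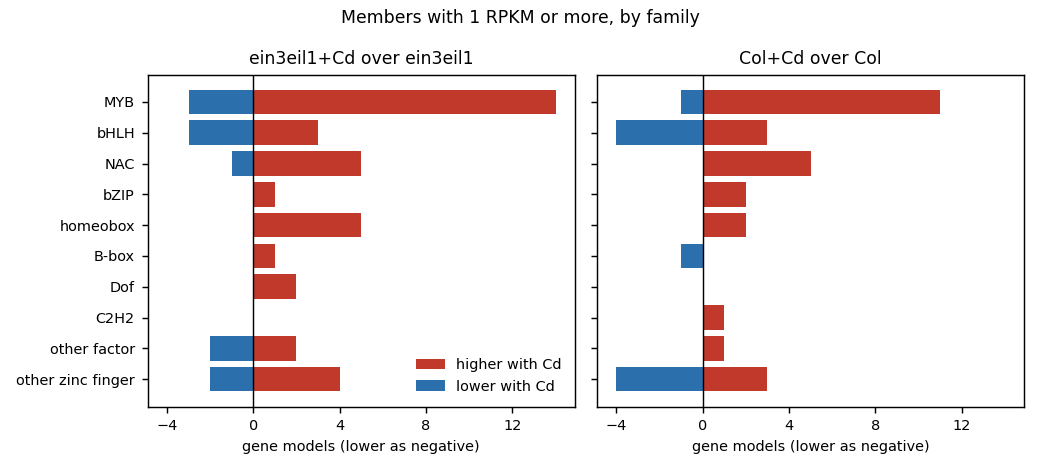
Number of members with 1 RPKM or more that were at least 2-fold higher (red, right of 0) or lower (blue, left of 0, drawn as negative counts) with Cd, by family, in ein3eil1 (left) and Col (right). MYB models make up the longest bars in both panels, 14 higher and 3 lower in ein3eil1 and 11 higher and 1 lower in Col, while bHLH models are split, 3 higher and 3 lower in ein3eil1 and 3 higher and 4 lower in Col.

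The 3 factor genes with the highest levels in ein3eil1+Cd among those listed in both genotypes were MYB4, NAC003 and NAC001, and the 250 bases before their RefSeq starts are printed to show the regulatory sequence next to genes that were higher in both. They were read from the RefSeq TAIR10.1 genome, at chr4:18053110-18053359 (plus strand), chr1:430721-430970 (minus strand) and chr1:3381-3630 (plus strand), and no annotated exon lies in them. Each runs 5′ to 3′ toward the gene, and capitals mark ATGTA or its reverse complement TACAT, a short core of EIN3 binding motifs.
MYB4: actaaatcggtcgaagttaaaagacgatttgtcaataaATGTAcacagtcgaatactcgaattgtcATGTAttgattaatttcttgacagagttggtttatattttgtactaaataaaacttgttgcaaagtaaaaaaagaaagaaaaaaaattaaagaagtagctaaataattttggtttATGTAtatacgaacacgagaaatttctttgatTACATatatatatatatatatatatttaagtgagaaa
NAC003: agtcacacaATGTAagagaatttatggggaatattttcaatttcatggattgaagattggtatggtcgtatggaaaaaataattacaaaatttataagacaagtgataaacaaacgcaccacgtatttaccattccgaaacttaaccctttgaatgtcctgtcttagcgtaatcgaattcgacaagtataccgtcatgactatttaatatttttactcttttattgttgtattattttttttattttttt
NAC001: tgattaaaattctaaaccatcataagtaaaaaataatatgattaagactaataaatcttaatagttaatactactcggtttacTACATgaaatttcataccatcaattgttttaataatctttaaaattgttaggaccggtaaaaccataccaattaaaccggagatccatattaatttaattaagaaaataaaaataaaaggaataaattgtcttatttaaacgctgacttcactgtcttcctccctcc
MYB4 holds 4 such matches, and NAC003 and NAC001 hold 1 each.

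This short motif is common, and its presence is a description, not a site. On either strand it stood in 52.0% of 27443 windows of this length before all protein-coding genes and in 43 of the 74 member loci (58.1%). It was in 20 of 38 loci listed as higher in ein3eil1 (52.6%) and 8 of 11 listed as lower (72.7%), and in 20 of 31 higher (64.5%) and 8 of 11 lower (72.7%) in Col. The G-box CACGTG, bound by many bHLH and bZIP factors, was in 6.49% of all windows and in 6 member loci (8.11%). It stood in 3 of the 11 loci lower in ein3eil1 and in none of the 11 lower in Col. AATATCT, the core of the evening element bound by clock MYB proteins, was in 10 member loci (13.5%, beside 10% of all). The GCC box GCCGCC of ERF factors was in no member window, beside 1.87% of all.

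The MYB family, counted only by the word myb in the description, held the most members, 17 in ein3eil1 and 13 in Col. With 1 RPKM or more, 14 were higher and 3 lower in ein3eil1, and 11 were higher and 1 lower in Col. Of all listed models at this level, 62.4% were higher in ein3eil1 and 55.5% in Col. MYB4 (AT4G38620, chromosome 4, 18053551 to 18054999 in the tables' coordinates), a repressor of the phenylpropanoid enzyme cinnamate 4-hydroxylase, was the MYB gene with the highest level among those that were higher. It stood at 92.8 RPKM in ein3eil1+Cd and 33.4 RPKM in the ein3eil1 control, a 2.78-fold ratio (2.55 to 3.03), and at 58.7 RPKM in Col+Cd and 23.0 RPKM in the Col control, 2.55-fold (2.31 to 2.83). Its relatives MYB3 and MYB32, which belong to the same group of repressors, were higher as well. MYB3 had 40.3 RPKM in ein3eil1+Cd and 18.1 RPKM in the ein3eil1 control, and 21.4 RPKM in Col+Cd and 10.1 RPKM in the Col control. MYB32 had 11.2 and 4.61 RPKM in ein3eil1+Cd and its control, and 7.45 and 3.26 RPKM in Col+Cd and its control. In all 3 genes the ratio was between 2.12-fold and 2.78-fold in both genotypes.

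MYB factors of the wall and of suberin, the waxy layer of root endodermis cells, were also among the higher models. MYB39, a suberin regulator, had 337 and 117 reads in ein3eil1+Cd and its control, or 14.5 and 4.99 RPKM, a 2.91-fold ratio (2.35 to 3.63). In Col it had 93 reads with Cd and 27 without, or 4.02 and 1.02 RPKM, 3.94-fold (2.54 to 6.29). Its level was higher in ein3eil1 in both conditions. Another suberin regulator, MYB53, was listed in ein3eil1 alone, at 2.38 RPKM with Cd and 0.850 RPKM without, from 47 and 17 reads, and it overlaps AT5G65225 by 57 bases on the same strand. In the list of 10 endodermis and suberin regulators these were the listed members, 2 higher in ein3eil1 and 1 in Col. Beside them, 2.20% of annotated protein-coding loci were listed as higher in ein3eil1 and 1.58% in Col. The Casparian strip markers CASP1 and CASP5 were lower in Col, CASP1 with 98.8 RPKM in Col+Cd and 198 RPKM in the control, and CASP5 with 1.93 and 12.4 RPKM.

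MYB63, an activator of lignin genes, stood at 9.74 and 3.92 RPKM in ein3eil1+Cd and its control and at 8.36 and 4.08 RPKM in Col+Cd and its control. MYB46, a master switch of secondary wall formation, was listed in ein3eil1, at 15.4 RPKM with Cd and 7.31 RPKM without, a 2.1-fold ratio (1.71 to 2.60). These were the listed members among 12 xylem and secondary wall regulators, with none lower. Among annotated protein-coding loci, 2.20% were listed as higher and 1.28% as lower in ein3eil1, and 1.58% and 1.21% in Col. The xylem protease gene XCP2 was lower in ein3eil1, at 85.7 RPKM with Cd and 193 RPKM without. MYB43 had the largest ratio of the MYB family in ein3eil1, 3.30-fold (2.68 to 4.10), with 22.2 RPKM in ein3eil1+Cd and 6.73 RPKM in the control. MYB12, which activates flavonol synthesis, had 24.3 RPKM with Cd and 10.1 RPKM without in ein3eil1. MYB49, a factor that has been linked to Cd accumulation, had 22.4 RPKM in ein3eil1+Cd and 8.81 RPKM in the control, 2.54-fold (2.12 to 3.04). Neither MYB12 nor MYB49 was listed in Col. MYB6 (2.31-fold) and MYB40 (2.01-fold, with a stretch of 111 bases shared with AT5G02215) completed the higher MYB genes seen in ein3eil1 alone.

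Another 5 MYB genes were listed as higher in Col alone, all under 2 RPKM in the Col control. MYB2, an abscisic acid and drought factor, had 5.55 RPKM in Col+Cd and 1.19 RPKM in the control, from 106 and 26 reads, the largest ratio of the family above 1 RPKM at 4.66-fold (3.01 to 7.47). MYB108, known from responses to the fungus Botrytis, had 3.08 RPKM with Cd and 0.738 RPKM without. MYB112, which promotes anthocyanin formation, had 5.80 RPKM in Col+Cd and 1.61 RPKM in the control. MYB87 had 2.58 and 0.798 RPKM. MYB60, best known from guard cells, had 17 reads in Col+Cd and 1 in the Col control and stayed under 1 RPKM. The remaining MYB models listed in both genotypes were MYB45 and MYB31. MYB45 had 14.5 and 4.49 RPKM in ein3eil1+Cd and its control, and 9.48 and 3.84 RPKM in Col+Cd and its control. MYB31 had 1.73 and 0.582 RPKM in ein3eil1+Cd and its control, and 6.13 and 2.78 RPKM in Col+Cd and its control.

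Of the MYB models that were lower, HRS1, a GARP-type MYB factor of the nitrate and phosphate response, had the highest level of any member in ein3eil1. It stood at 60.3 RPKM in ein3eil1+Cd and 148 RPKM in the control, 2.46-fold lower (2.30 to 2.63). It was the 1 listed member of 12 nutrient response regulators, beside 1.28% of annotated protein-coding loci listed as lower in ein3eil1. MYB77, which takes part in auxin-dependent lateral root growth, had 10.7 RPKM with Cd and 22.3 RPKM without, and MYB305, the MYB model with the lowest ratio there, had 3.46 and 8.53 RPKM, 2.46-fold lower (1.82 to 3.37). In Col the lower MYB member was MYB10, an iron deficiency factor, with 16 reads in Col+Cd and 58 in the control, 3.17-fold lower (1.80 to 5.90). A stretch of MYB10 RNA overlaps its neighbour AT3G12810 on the opposite strand, and reads of these genes cannot be told apart, since the strand setting is not given in the sources used here.

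**Figure D2:**
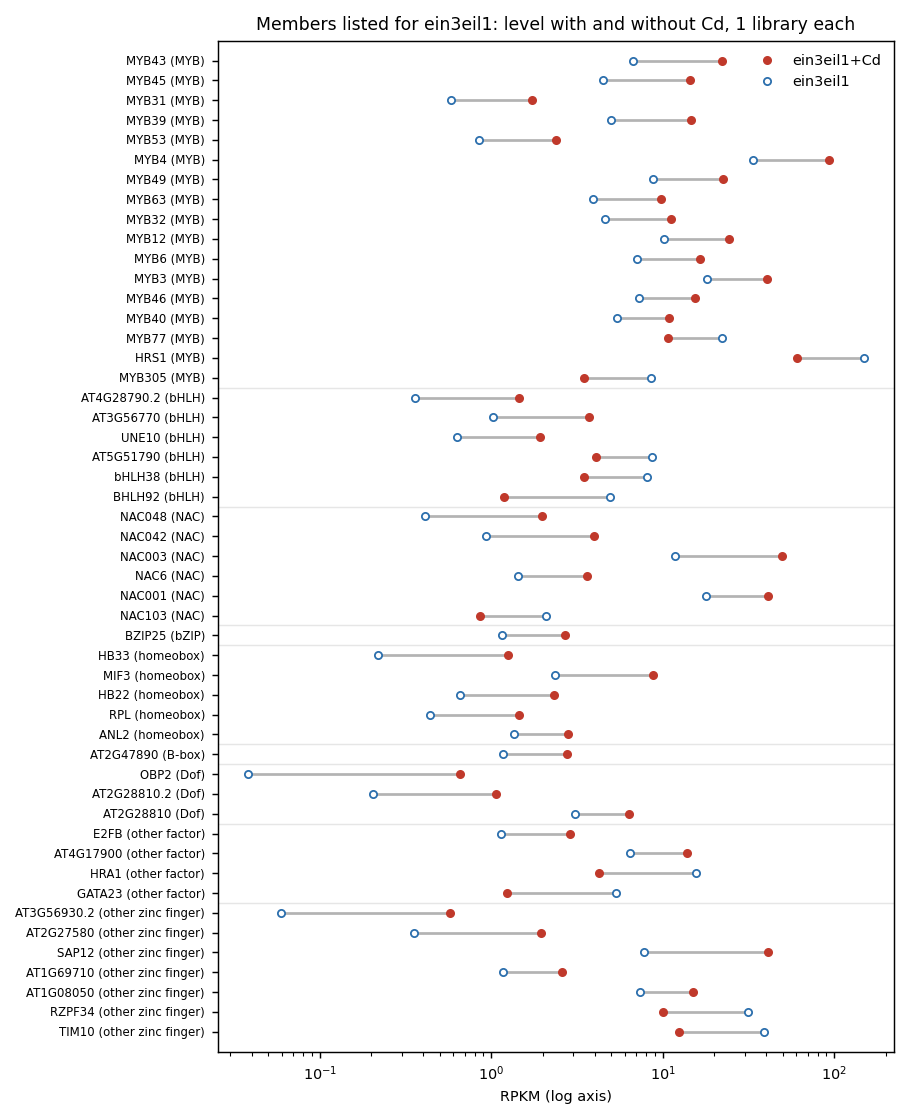
Level in RPKM (log axis) of the 50 members listed for ein3eil1, by family and ratio, with ein3eil1+Cd as filled red points and the ein3eil1 control as open blue points, 1 library each. HRS1 has the highest point, 148 RPKM in the control, and MYB4 the highest with Cd, 92.8 RPKM.

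NAC members were higher in 5 of 6 models in ein3eil1 (beside 62.4% of all listed models) and in 5 of 5 in Col (beside 55.5%). NAC003 (AT1G02220, chromosome 1, 428814 to 430647) and NAC001 (AT1G01010, chromosome 1, 3631 to 5899) were the abundant ones. NAC003 had 49.4 RPKM in ein3eil1+Cd and 11.7 RPKM in the ein3eil1 control, 4.20-fold (3.68 to 4.82), and 72.7 RPKM in Col+Cd and 29.2 RPKM in the Col control, 2.50-fold (2.29 to 2.72). The NAC001 levels lay close together in the genotypes, 41.1 and 17.9 RPKM in ein3eil1+Cd and its control and 42.6 and 20.8 RPKM in Col+Cd and its control.

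NAC042, also called JUNGBRUNNEN1, a factor induced by hydrogen peroxide that delays ageing, had few reads in the controls. It had 59 and 14 reads in ein3eil1+Cd and its control, 4.26-fold (2.35 to 8.27), and 45 and 5 reads in Col+Cd and its control, 10.3-fold (4.10 to 33.2). Part of it overlaps the gene AT2G42990 on the opposite strand. NAC048 was higher in both genotypes too, with 1.98 and 0.409 RPKM in ein3eil1+Cd and its control and 8.56 and 2.41 RPKM in Col+Cd and its control. NAC036 was listed in Col alone, with 77 reads in Col+Cd and 1 in the control, an 88.1-fold ratio whose interval runs from 15.3 to 3525. This is the largest ratio of any member with 1 RPKM or more, and with a pseudocount of 1 RPKM its log2 value is 2.43 in place of 6.46.

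In ein3eil1 alone, NAC6 (ORE1), a senescence factor that is a known target of EIN3, had 3.61 RPKM with Cd and 1.44 RPKM without, 2.51-fold (1.61 to 4.01). NAC103, which acts in the unfolded protein response, was the lower NAC member, with 24 reads in ein3eil1+Cd and 59 in the control, 2.43-fold lower (1.49 to 4.09). It was the 1 listed gene of 6 regulators of that response. None of 9 other stress NAC factors fixed as a list, ATAF1 and RD26 among them, was listed in either genotype. Beside these lists, 2.20% of annotated protein-coding loci were listed as higher and 1.28% as lower in ein3eil1, and 1.58% and 1.21% in Col. At such shares, lists of 6 and 9 genes are too short for these counts to describe them.

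The bHLH family was divided. In ein3eil1 3 of 6 models were higher (beside 62.4% of all) and 3 lower, and in Col 3 of 7 were higher (beside 55.5%) and 4 lower. The close relatives bHLH38 and bHLH39, which pair with the factor FIT to switch on iron uptake genes, lie 1395 bases apart on chromosome 3 and were each listed as lower in 1 genotype. bHLH38 had 3.46 RPKM in ein3eil1+Cd and 8.07 RPKM in the control, from 53 and 125 reads, 2.33-fold lower (1.68 to 3.28). bHLH39 had 3.18 RPKM in Col+Cd and 7.42 RPKM in the control, from 45 and 120 reads, also 2.33-fold lower (1.64 to 3.36). With MYB10 these were the listed members of 13 iron regulators, none of them higher, while FIT itself was not listed. Among annotated protein-coding loci, 1.28% were listed as lower and 2.20% as higher in ein3eil1, and 1.21% and 1.58% in Col. Part of bHLH38 overlaps AT3G56960 on the opposite strand. Another neighbouring pair of bHLH genes on chromosome 5, AT5G51790 and AT5G51780, was also listed as lower with 1 gene in each genotype. AT5G51790 had 4.06 RPKM in ein3eil1+Cd and 8.71 RPKM in the control, and AT5G51780 had 9.26 RPKM in Col+Cd and 20.1 RPKM in the control. AT5G51790 shares 241 bases of transcript with AT5G07825.

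BHLH92, a gene of osmotic stress responses, had the lowest bHLH ratio in ein3eil1, with 18 reads with Cd and 75 without, 4.12-fold lower (2.44 to 7.32). In Col the lowest was AT2G31730, with 3.21 RPKM with Cd and 8.33 RPKM without, 2.59-fold lower (1.90 to 3.58). AT4G25410 was 2.16-fold lower in Col. On the other side, UNE10 was the bHLH gene listed in both genotypes, at 1.92 and 0.632 RPKM in ein3eil1+Cd and its control and 3.003 and 0.770 RPKM in Col+Cd and its control. AT5G56960 had 67 reads in Col+Cd and 9 in the control, 8.52-fold (4.23 to 19.4). AT1G22490 was 2.1-fold higher in Col, and AT3G56770 and the model AT4G28790.2 were 3.62-fold and 4.05-fold higher in ein3eil1, from 12 and 9 control reads.

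Homeobox members were higher in 5 of 5 models in ein3eil1 and 2 of 2 in Col, none of them above 10 RPKM. Both counts take in MIF3, whose description names a mini zinc finger and no homeobox. Beside these few models, 62.4% and 55.5% of all listed models with 1 RPKM or more were higher. MIF3, a mini zinc finger protein related to the zinc finger homeodomain (ZHD) factors, was the 1 listed in both, with 8.76 and 2.36 RPKM in ein3eil1+Cd and its control and 7.98 and 1.05 RPKM in Col+Cd and its control. These values rest on 44 and 12 reads in ein3eil1 and on 40 and 6 in Col. The ZHD genes HB33 and HB22 were 5.73-fold (2.38 to 16.7) and 3.54-fold (1.72 to 8.02) higher in ein3eil1, and ZHD1 had 20 reads in Col+Cd and 1 in the Col control. RPL, a meristem and fruit factor of the BELL group, had 1.45 and 0.438 RPKM in ein3eil1+Cd and its control. ANL2, a factor of anthocyanin and root cell patterning, had 2.81 RPKM with Cd and 1.36 RPKM without in ein3eil1.

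The bZIP members, 1 in ein3eil1 and 2 in Col, were higher, beside 62.4% and 55.5% of all listed models, and are too few to describe the family. bZIP8 (AT1G68880), listed in Col alone, was the factor with the highest level in Col+Cd, 81.9 RPKM, against 34.9 RPKM in the control, 2.34-fold (2.1 to 2.62). bZIP5 had 7.42 RPKM in Col+Cd and 3.08 RPKM in the control, and BZIP25 had 2.67 RPKM in ein3eil1+Cd and 1.16 RPKM in its control. Among B-box proteins, which mostly act in light signalling, the genotypes listed different genes. AT2G47890 was 2.38-fold higher in ein3eil1, while BZS1 stood at 19.8 RPKM in Col+Cd and 44.3 RPKM in the control, 2.24-fold lower (1.98 to 2.55), and BBX14 was lower in Col at under 1 RPKM, with 5 and 29 reads. AT2G47890 shares 247 bases with a transcript of AT2G47895, and BBX14 overlaps AT1G68510 on the opposite strand by 329 bases. The Dof members were listed in ein3eil1 alone: OBP2, known from glucosinolate regulation, had 17 reads with Cd and 1 without at under 1 RPKM (model AT1G07640.2), and AT2G28810 was listed as 2 models, 2.05-fold and 5.23-fold higher. How reads were divided between models of a locus is not given in the sources used here, which bears on the 6 listed models that are not the first of their locus. The C2H2 gene AT3G46080 had 10.4 RPKM in Col+Cd and 3.16 RPKM in the control. Of 11 stress C2H2 genes it was the 1 listed as higher, and AZF2 was listed as lower in Col, at 3.41 and 6.83 RPKM. Beside this, 1.58% of annotated protein-coding loci were listed as higher and 1.21% as lower in Col.

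Single members of smaller families included some of the lowest ratios. HRA1, a trihelix factor that holds back the response to low oxygen, had 4.24 RPKM in ein3eil1+Cd and 15.7 RPKM in the control, from 118 and 441 reads, 3.70-fold lower (3.01 to 4.57). GATA23, which marks the founder cells of lateral roots, had 13 reads in ein3eil1+Cd and 57 in the control, 4.33-fold lower (2.34 to 8.63) and the lowest ratio of any member in that genotype. E2FB, a cell cycle factor (model AT5G22220.2), was 2.50-fold higher in ein3eil1, and the PLATZ factor AT4G17900 was 2.15-fold higher, with 13.8 RPKM with Cd and 6.40 RPKM without. In Col, AGL46 had 25 reads with Cd and 4 without. YAB1, a factor of leaf and floral organ polarity, had 16 reads in Col+Cd and 0 in the control, at least 6.1-fold higher with the control library taken at 3 reads.

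**Figure D3:**
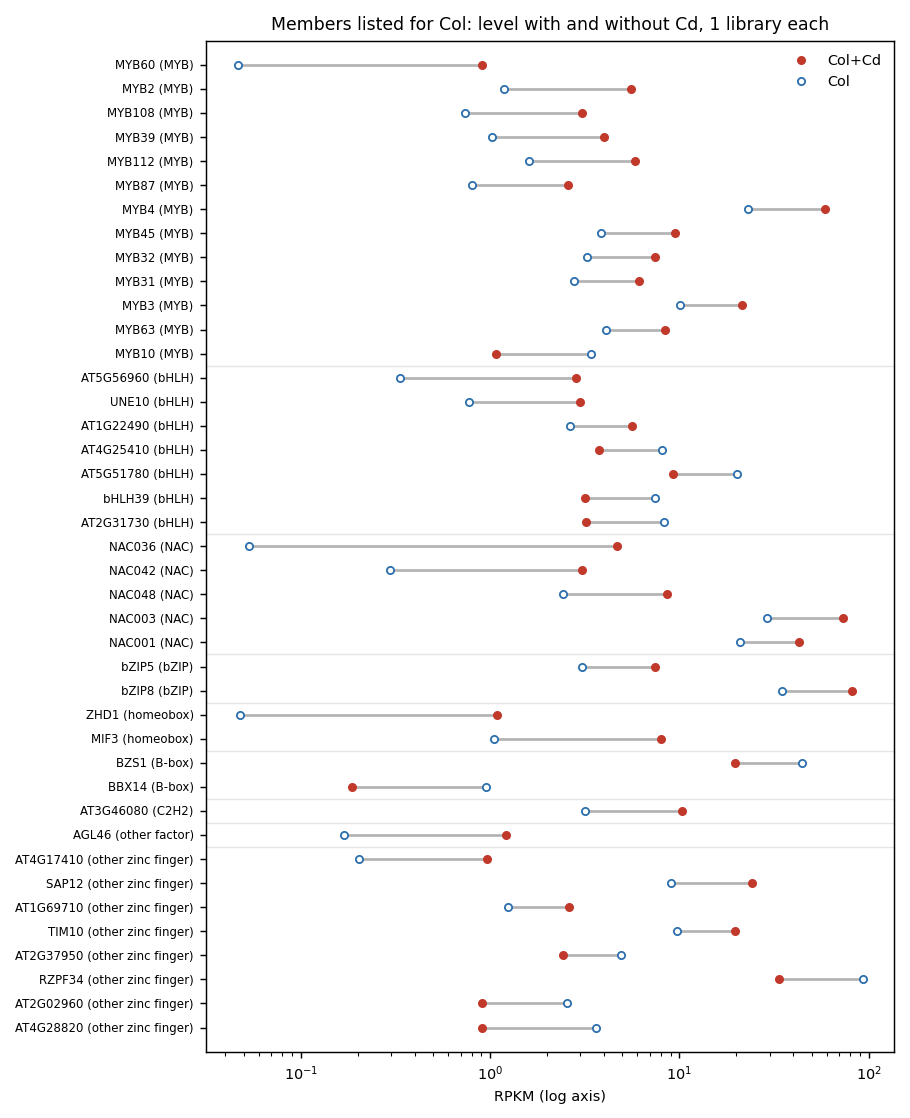
Level in RPKM (log axis) of the members listed for Col, by family and ratio, with Col+Cd as filled red points and the Col control as open blue points, 1 library each. YAB1, which has 0 control reads, is not drawn. bZIP8, NAC003 and MYB4 have the highest points with Cd, 81.9, 72.7 and 58.7 RPKM.

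The other zinc finger proteins with 1 RPKM or more went both ways, with 4 higher and 2 lower in ein3eil1 and 3 higher and 4 lower in Col. The higher share was 66.7% in ein3eil1, close to the 62.4% of all listed models, and 42.9% in Col, beside 55.5%. SAP12, a stress-associated protein with AN1 fingers, had 41.3 RPKM in ein3eil1+Cd and 7.78 RPKM in the ein3eil1 control, 5.32-fold (4.38 to 6.49), and 24.2 RPKM in Col+Cd and 9.03 RPKM in the Col control, 2.68-fold (2.23 to 3.24). RZPF34, a RING-type ubiquitin ligase, was the 1 member lower in both genotypes. It had 9.998 RPKM in ein3eil1+Cd and 31.2 RPKM in its control, 3.12-fold lower (2.67 to 3.66), and 33.7 RPKM in Col+Cd and 93.4 RPKM in its control, 2.77-fold lower (2.55 to 3.02). TIM10, a chaperone of mitochondrial import (model AT2G29530.2), was the 1 member with opposite directions. It had 12.4 RPKM in ein3eil1+Cd and 39.1 RPKM in the ein3eil1 control, from 114 and 362 reads, but 19.7 RPKM in Col+Cd and 9.66 RPKM in the Col control, from 180 and 101 reads. RefSeq gives this locus 3 transcripts. AT1G69710, with RCC1 and FYVE domains, was higher in both genotypes, at 2.57 and 1.18 RPKM in ein3eil1+Cd and its control and 2.61 and 1.25 RPKM in Col+Cd and its control. Among models of this group with 1 RPKM or more, the highest ratio in ein3eil1 was that of the A20/AN1 gene AT2G27580, with 33 reads with Cd and 6 without, 5.56-fold (2.3 to 16.2). The lowest in Col was that of the HIT-type gene AT4G28820, with 10 reads with Cd and 46 without, 4.02-fold lower (2.001 to 8.93), and this gene overlaps AT4G28815 by 973 bases on the opposite strand. The RING-type genes AT1G08050, 2.03-fold higher in ein3eil1, and AT2G37950 and AT2G02960, 2.03-fold and 2.81-fold lower in Col, were each listed in 1 genotype. AT3G56930 in ein3eil1 and AT4G17410 in Col were higher at under 1 RPKM.

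Set side by side, the 17 models listed in both genotypes make up 34.0% of the ein3eil1 members and 40.5% of the Col members, beside 28.5% and 35.3% of all models listed for these genotypes. The shares over all models count a model as listed in both only with 1 RPKM or more. Of the 17 members, 15 were higher in both (beside 52.3% of the 285 models listed in both tables with 1 RPKM or more), 1 was lower in both (beside 38.2%) and 1 was opposite (beside 9.47%). The interval of the difference of log2 ratios, a 95% normal interval of the 4 read counts that covers counting error only, held 0 for 14 of the 17. That does not show that they responded alike, since some of these intervals are wide, as for NAC042 (ein3eil1 minus Col -1.27, interval -2.85 to 0.30). That interval was not computed for the other models listed in both genotypes, so how often it leaves out 0 among them is not known. The ratio was larger in ein3eil1 for SAP12, by 0.99 on the log2 scale (0.61 to 1.37), and for NAC003, by 0.75 (0.52 to 0.98). With TMM factors the differences were 0.72 for SAP12 and 0.49 for NAC003, the latter below its counting interval. TIM10 had a difference of -2.68 (-3.14 to -2.21). For MYB4 the difference was 0.12 (-0.07 to 0.31), and it was -0.14 with TMM factors.

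**Figure D4:**
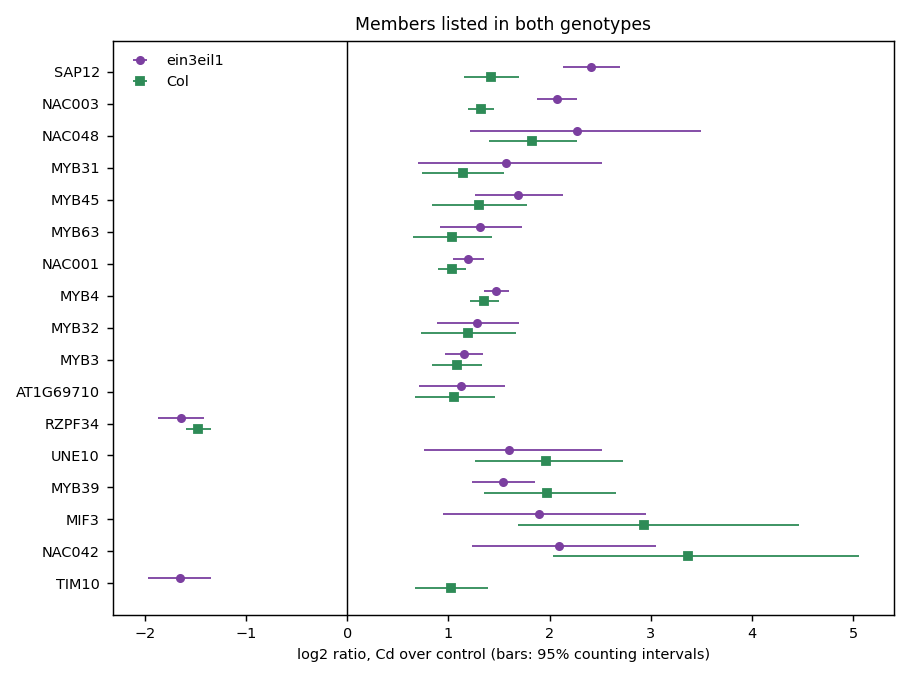
Log2 ratio of Cd over control for the 17 members listed in both genotypes, ein3eil1 as violet circles and Col as green squares, with 95% exact counting intervals. Most pairs of intervals overlap, SAP12 and NAC003 lie farther right in ein3eil1, and TIM10 lies on opposite sides of 0.

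The same 17 models allow the levels of the genotypes to be compared, each library being scaled by its own total in a separate table, with no replicates and no test. Without Cd, 5 had an ein3eil1 over Col ratio with an interval above 1, 5 had one below 1 and 7 had one that held 1. With Cd the counts were 6, 6 and 5. The same counts were not made over all models listed in both genotypes, so they cannot be read as particular to these factors. MYB39 was 4.89-fold higher in untreated ein3eil1 than in untreated Col (3.20 to 7.74) and 3.62-fold higher with Cd (2.87 to 4.60). MYB3 was 1.79-fold (1.5 to 2.14) and 1.88-fold (1.66 to 2.13) higher in ein3eil1, and MYB4 1.45-fold (1.3 to 1.62) and 1.58-fold (1.47 to 1.70). In the other direction, NAC048 was 5.90-fold lower in untreated ein3eil1 (2.91 to 13.5) and 4.33-fold lower with Cd (3.10 to 6.19). MYB31 was 4.78-fold and 3.55-fold lower, and RZPF34 2.99-fold and 3.37-fold lower. NAC003 was 2.48-fold lower in untreated ein3eil1 (2.16 to 2.86) and 1.47-fold lower with Cd (1.37 to 1.59). TIM10 was 4.05-fold higher in untreated ein3eil1 (3.24 to 5.1) and 1.58-fold lower with Cd (1.24 to 2.02). SAP12 showed no detectable difference without Cd (0.861-fold, 0.677 to 1.09) and was 1.71-fold higher in ein3eil1 with Cd (1.5 to 1.94).

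**Figure D5:**
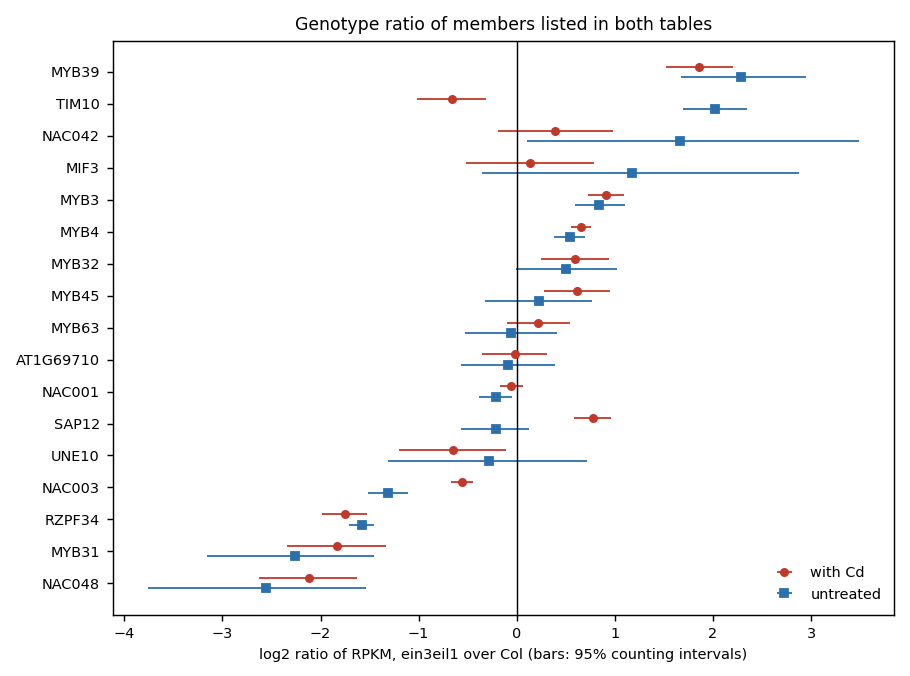
Log2 ratio of RPKM in ein3eil1 over Col for the 17 members listed in both tables, with Cd as red circles and untreated as blue squares, with 95% exact counting intervals. MYB39 lies right of 0 and NAC048, MYB31 and RZPF34 lie left of 0 in both conditions, while TIM10 changes sides.

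Beyond these shared models, 33 members were listed in ein3eil1 alone and 25 in Col alone, or 66.0% and 59.5% of the members listed for each, beside 71.5% and 64.7% of all models. No value of the other genotype is given for these members. The 71.5% and 64.7% also count models that both genotypes listed at under 1 RPKM. In the gene ontology labels that the tables carry, response to hormone stimulus was attached to 10 of 50 members in ein3eil1 (20%, beside 4.5% of all models of that table) and to 10 of 42 in Col (23.8%, beside 5.2%). In each genotype 9 of these were higher, beside 62.4% (ein3eil1) and 55.5% (Col) of all listed models with 1 RPKM or more. Response to metal ion was attached to 2 members in ein3eil1 (4%, beside 5.29%) and 3 in Col (7.14%, beside 4.34%). Of 122 regulators in 11 lists, chosen with earlier results of these data known, no heat shock factor of 14 and no glucosinolate regulator of 9 was listed. OBP2, listed in ein3eil1 at under 1 RPKM, was not among those 9. Of 14 circadian clock genes GI was 2.01-fold higher and RVE1 2.1-fold lower in Col. TRY, of 12 root epidermis regulators, had 5 reads in ein3eil1+Cd and 31 in the control. Of all annotated protein-coding loci, 2.20% were listed as higher and 1.28% as lower in ein3eil1, and 1.58% and 1.21% in Col.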

How the data were processed

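The authors' processing is known only in part, since the sources used here give no aligner, counting tool, strand setting or genome build. Per the labels' protocols, cDNA was primed with random primers on Trizol-extracted RNA, for Illumina sequencing. The deposited tables, 1 per genotype, give read counts per gene model as whole numbers. The authors' RPKM is that count divided by model length and the library total, with 0.001 entered for 0 reads. The authors' log2 ratio is the log2 of Cd over control RPKM, and only models with a size of 1 or more are listed, with the authors' p-value and FDR from a comparison of 2 libraries (largest FDR 0.000987). The deposited p-values were not used as evidence.

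From these values the library totals, ratios, exact Clopper-Pearson intervals (95%) and a floor of 3 reads per library were computed. Members were counted from 1 RPKM upward in either library. PCR reads without molecular identifiers are not independent molecules, so intervals cover counting error only, and no test across samples was run, with 1 library per group. Intervals were tested on simulated reads with counting error alone and no 2-fold selection. That cannot show how well they hold for the listed models. Any member with 1 RPKM or more could be named, as were the highest and lowest of each family and all listed in both tables. YAB1, MYB60, BBX14, OBP2, AT3G56930 and AT4G17410, under 1 RPKM, and the non-members RBCS1A, RBCS3B, LHCB2.1, CASP1, CASP5, XCP2, AZF2, GI, RVE1 and TRY were named as such or as listed members of a fixed list. The members, lists, tests and named genes were chosen with earlier results of these data known, and the 3 printed promoters after their values were seen. Coordinates are the tables' own, with no build named, and those of promoters are from RefSeq TAIR10.1, and all 74 loci matched it. Symbols are from RefSeq or the tables. Transcript stretches of 100 bases or more at 95% identity or more to another locus, on either strand, were found with blastn 2.17.0 for 9 of the 74 loci. Another protein-coding gene overlaps 10 loci. For BBX14, NAC042, MYB10, bHLH38 and AT4G28820 the stretch matches the same gene that overlaps them on the opposite strand. Whether the other stretches are copies or overlaps in place was not checked, since overlaps were sought among protein-coding genes only. Python 3.11.15, pandas 2.3.3, SciPy 1.17.1, matplotlib 3.10.9, R 4.3.3 and edgeR 4.0.16 (for TMM factors) were used.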

Additional observations from a re-analysis of the deposited data

Results flagged for a closer look

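TIM10 (model AT2G29530.2) was lower with Cd in ein3eil1, at 12.4 RPKM with Cd and 39.1 RPKM without, and higher in Col, at 19.7 and 9.66 RPKM. The single pair of libraries of each genotype thus moved in opposite ways, with a difference of log2 ratios, ein3eil1 minus Col, of -2.68. The difference was not tested across samples, since each group had 1 library. TIM10 shares 160 bases of transcript with the locus AT2G08345, and whether this is a copy or an overlap in place was not checked. It also overlaps AT2G29525 by 21 bases on the opposite strand. The locus has 3 RefSeq transcripts, and how reads were divided between its models is not given. The part of these in the result was not tested.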

How the results depend on the processing

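No paired analysis was possible because the groups, with 1 library each, share fewer than 2 replicate numbers. A fit of Cd with genotype as the block, which takes the genotype difference in the 17 shared models as its error, was not run. At 4-fold, 8 members were higher and 2 lower in ein3eil1 and 8 higher and 1 lower in Col, and of the members shared by the genotypes, 1 was higher in both, 0 lower in both and 0 opposite. At 5 RPKM, 19 were higher in ein3eil1 and 18 higher and 6 lower in Col. With a pseudocount of 1 RPKM, 19 were higher in ein3eil1. TMM factors, computed from the listed models, shifted log2 ratios by -0.60 in ein3eil1 and -0.34 in Col and left 14 and 16 higher. As every listed model differed at least 2-fold, that shift is no estimate of a scaling error. At an authors' FDR of 1e-05 or less, 23 were higher in ein3eil1 and 5 lower in Col. Without the other zinc finger proteins, 6 were lower in Col, 0 were lower in both and 0 were opposite. These lower counts follow from fewer models passing. With no minimum and with 1 model per locus, every count stayed within 1.5 times its value. Of 91 log2 ratios of single members, 20 moved outside their counting interval with the pseudocount and 38 with TMM factors. No sign could turn, since a pseudocount keeps it and each TMM shift is smaller in size than every listed log2 ratio. Of the 17 differences between genotypes, 3 turned sign with the pseudocount (NAC048 to -0.41, MYB31 to -0.13 and MYB39 to 0.06) and 5 with TMM factors (NAC001 to -0.10, MYB4 to -0.14, MYB32 to -0.18, MYB3 to -0.20 and AT1G69710 to -0.20), all of them among those whose interval held 0. With TMM factors 4 of the 17 differences moved outside their counting interval: NAC003 (to 0.49), NAC001, MYB4 and RZPF34 (to -0.44). TMM factors were not run on the ratios between genotypes. Depth limited the members with few reads: 7 in ein3eil1 and 9 in Col had fewer than 10 reads in the lower library.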
